A study of Mus musculus with 8 samples.

Results

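Cohesin subunit genes were examined in bulk RNA-Seq of E14.5 mouse ovaries that lacked *Bmpr1a*, the type I BMP receptor, in their germ cells. The 9 genes were chosen by symbol, and all 9 were present among the 25239 gene symbols of the count files. *Rec8*, *Rad21l*, *Stag3* and *Smc1b* encode subunits of meiotic cohesin and were set against *Rad21*, *Stag1*, *Stag2* and *Smc1a*, their mitotic counterparts, and against *Smc3*, which serves both forms. All 9 passed the filter on low counts and were among the 14249 genes tested.

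The 4 control libraries came from *Bmpr1a* fl/fl ovaries and the 4 *Bmpr1a*-cKO libraries from *Bmpr1a* fl/fl;*Oct4-Cre* Cre/WT ovaries, all on a C57BL/6 background. In both genotypes the dams had been given 1 mg of 4-hydroxytamoxifen and 0.5 mg of progesterone at 9.5 dpc, again at 10.5 dpc and last at 11.5 dpc, since the Cre is inducible by tamoxifen. Each library held the pooled ovaries of 2 embryos (8 embryos per genotype, from 6 litters in all), and the litter of each library is not given. The Cre is driven by *Oct4* (*Pou5f1*) and acts in germ cells, so the somatic cells of the *Bmpr1a*-cKO ovary still carried an intact receptor, and whole ovaries were sequenced. Fewer cells of a type and less RNA per cell cannot be told apart in such samples.

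Cohesin is a ring that holds sister chromatids together. A pair of SMC proteins, SMC1 and SMC3, forms most of the ring, a kleisin closes it, and a STAG protein binds the kleisin. Mitotic cells use SMC1A, SMC3, RAD21 and STAG1 or STAG2. Germ cells that enter meiosis add SMC1B, the kleisins REC8 and RAD21L and the STAG protein STAG3. These build the chromosome axes on which homologues pair and recombine. Cohesin with REC8 holds sister chromatids together until the meiotic divisions. Fetal ovarian germ cells add these subunits as they leave mitosis and enter meiotic prophase.

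The promoter windows of the subunit genes are shown because the meiotic members moved together. The window of *Rad21l* differs in base composition from the other windows. RefSeq (GRCm38.p6) gave a promoter window for 7 of the 9 members and none for *Rad21* or *Stag2*. The first 3 stretches lie upstream of the annotated gene and the last 2 are short stretches around a motif, all 5′ to 3′, and capitals mark motif letters.
*Rad21l* (chr2:151668534-151668783, minus strand): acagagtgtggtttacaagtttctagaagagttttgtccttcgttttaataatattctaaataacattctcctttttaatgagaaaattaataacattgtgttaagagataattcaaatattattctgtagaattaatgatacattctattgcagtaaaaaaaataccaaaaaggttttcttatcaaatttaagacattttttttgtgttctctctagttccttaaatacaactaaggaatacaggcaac
*Smc1b* (chr15:85131965-85132207, minus strand): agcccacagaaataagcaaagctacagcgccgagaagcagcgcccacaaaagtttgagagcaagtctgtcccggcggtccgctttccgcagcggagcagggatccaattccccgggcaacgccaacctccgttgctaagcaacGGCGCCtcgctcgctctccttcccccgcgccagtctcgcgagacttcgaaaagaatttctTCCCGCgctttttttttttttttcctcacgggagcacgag
*Smc1a* (chrX:152016178-152016427, plus strand): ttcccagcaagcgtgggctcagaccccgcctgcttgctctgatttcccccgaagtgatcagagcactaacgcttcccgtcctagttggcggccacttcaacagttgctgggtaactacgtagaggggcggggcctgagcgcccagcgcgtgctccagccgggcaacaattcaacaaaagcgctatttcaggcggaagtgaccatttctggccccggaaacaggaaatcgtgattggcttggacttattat
*Rec8* (chr14:55618116-55618145, plus strand): gtgtgcacctgaTCCCGCtggagggcgaca
*Stag3* (chr5:138280327-138280356, plus strand): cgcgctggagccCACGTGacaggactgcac

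Motifs were searched on both strands of windows of 300 bases around the RefSeq start site, from which positions are counted. The windows of *Stag3* and *Stag1* and the motif of *Rec8* lie inside these genes as annotated by GENCODE. They are thus upstream of the RefSeq start only. TCCCGC, a motif of E2F factors, is held by 20% of the 32851 RefSeq promoters and was found in *Rec8* at positions -38 to -33 from the start site, in *Smc1b* at -47 to -42, and also in *Stag3*, *Stag1*, *Smc1a* and *Smc3*. GGCGCC, a GC-rich element bound by SMAD1 and SMAD5, which act downstream of BMP receptors, is held by 11.9% of promoters and was found in *Smc1b* at -107 to -102 and in *Stag1* at -165 to -160. The E-box CACGTG, held by 7.15% of promoters, was found in *Stag3* at -170 to -165. The letters of CNCCTCAG, the motif of STRA8 and MEIOSIN (7.94% of promoters), were in none of the 7 windows. The *Rad21l* window held none of the motifs searched. The 250 bases upstream of *Rad21l* were 25.6% G or C with 1 CpG, and 0.377% of all promoters had a lower share. The other 6 windows had 56% to 71.2% G or C and 10 to 31 CpGs (median of all promoters 52.4%). The annotated exons of *Rad21l* hold almost only coding sequence (1659 bases for 551 residues). Its window may thus lie upstream of the coding start rather than of the start of transcription. Whether it is the promoter was not tested. These matches describe letters and are not binding sites.

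The control libraries held 10622684 to 15365052 counts and the *Bmpr1a*-cKO libraries 8562961 to 14887102. Levels are given as CPM, the count scaled to the library size after TMM, and log2FC is the log2 fold change of *Bmpr1a*-cKO over control from edgeR. A DEG had an absolute log2FC above 0.5 with an FDR below 0.05. *Bmpr1a* itself, counted over all of its exons, was at 199 to 237 CPM in control libraries and at 185 to 209 CPM in those of *Bmpr1a*-cKO, with a log2FC of -0.16 (SE 0.064, FDR = 0.0692). The summed level of 8 germ cell markers was 682 to 903 CPM in control libraries and 700 to 1096 CPM in the others. By FDR 2 of the 8 were lower (*Mael*, *Tdrd9*) and 2 higher (*Dazl*, *Dnd1*), where all genes tested gave 12.5% lower and 17.3% higher. *Ddx4*, the germ cell RNA helicase, had a log2FC of 0.11 (SE 0.13, FDR = 0.561). Other marker sums moved too. Those of 6 pregranulosa genes were 804 to 900 CPM in control and 624 to 762 CPM in *Bmpr1a*-cKO libraries (5 of 6 lower by FDR, background 12.5%). In the same order, those of 4 Sertoli genes were 14.1 to 16.3 and 10.8 to 11.6 CPM (2 of 4 lower by FDR). The Sertoli genes *Amh* and *Dhh*, at control means of 1.10 and 0.821 CPM, were not called. Those of 4 macrophage genes were 22.8 to 27.6 and 30.5 to 37.6 CPM (3 of 4 higher by FDR, background 17.3%). The sums of stroma, endothelium and mesonephros markers overlapped between the genotypes, and of the erythroid genes *Hba-a1* and *Hbb-bt* were at 0 in every library. The part of these cell types in the cohesin results was not tested.

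The meiotic subunit genes were lower in *Bmpr1a*-cKO ovaries, and the mitotic ones were higher or did not pass the test. Of the 4 meiotic genes, 3 were downregulated DEGs (*Rad21l*, *Smc1b* and *Stag3*), against a background of 4.06% of all genes tested, and all 4 were lower by FDR alone, where the background is 12.5%. Every *Bmpr1a*-cKO library lay below every control library in all 4, which holds for 11.7% of genes tested. Of the 5 mitotic or shared genes, 2 were upregulated DEGs (*Rad21* and *Smc1a*; background 6.11%), 3 were higher by FDR alone (background 17.3%), and 3 had their *Bmpr1a*-cKO libraries wholly above the control range (background 16.1%). The median log2FC was -0.92 over the meiotic and 0.28 over the mitotic genes, and -0.0042 over all genes tested.

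**Figure D1:**
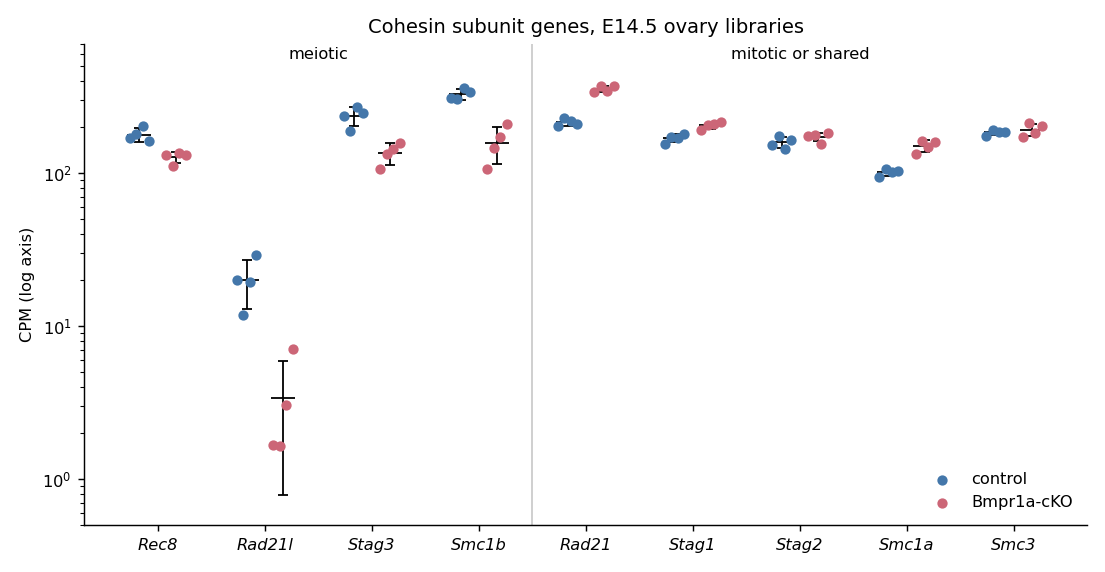
CPM (log axis) of the 9 cohesin subunit genes in each of the 4 control and 4 *Bmpr1a*-cKO libraries, with a bar for the mean and whiskers of 1 SD. The *Bmpr1a*-cKO points lie below all control points for the 4 meiotic genes and above them for *Rad21*, *Stag1* and *Smc1a*, while those of *Stag2* and *Smc3* overlap.

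The meiotic kleisin gene *Rad21l* (chr2:151645404-151668533, minus strand, mm10; 551 residues) fell furthest. It was at 19.9, 11.8, 19.3 and 29.1 CPM in control libraries 1 to 4 and at 1.7, 1.6, 3.0 and 7.1 CPM in *Bmpr1a*-cKO libraries 1 to 4. The lowest control library thus lay above *Bmpr1a*-cKO library 4, which stood above the other three. The mean went from 20.02 ± 7.09 to 3.36 ± 2.58 CPM (SD, n = 4 each), a log2FC of -2.49 (SE 0.35, FDR = 8.05e-05), and 0.0421% of the genes tested had a lower log2FC. These levels rest on 133 to 461 counts per control library and on 14 to 104 per *Bmpr1a*-cKO library. Without *Bmpr1a*-cKO library 4 the log2FC was -3.28.

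*Rec8* (chr14:55618037-55625395, plus strand; 590 residues) encodes the kleisin whose cleavage lets meiotic chromosomes part. Its level was 169, 180, 204 and 162 CPM in control libraries and 132, 112, 135 and 131 CPM in *Bmpr1a*-cKO libraries. The genotypes did not overlap, and *Bmpr1a*-cKO library 2 stood below the other three. The mean fell from 179 ± 18.3 to 127 ± 10.7 CPM, and the log2FC of -0.49 (SE 0.079, FDR = 0.000288) lay just short of the fold-change threshold, so *Rec8* was no DEG. It passed that threshold without control library 1 (-0.51) or 4 (-0.54), without *Bmpr1a*-cKO library 1 (-0.51), 3 (-0.52) or 4 (-0.51), and with library size as the only scaling (-0.54). Scaled to *Ddx4* its log2FC was -0.54 with a larger SE (0.23, FDR = 0.215), and scaled to the germ cell marker list it was -0.44 (SE 0.17, FDR = 0.0739).

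*Stag3* (chr5:138280240-138312393, plus strand; 1239 residues) encodes the STAG protein of meiotic cohesin and was at 238, 190, 271 and 248 CPM in control libraries. In *Bmpr1a*-cKO libraries it was at 107, 133, 144 and 158 CPM. All *Bmpr1a*-cKO libraries lay below the control range, with library 1 the lowest. The mean went from 237 ± 34.1 to 136 ± 21.7 CPM and the log2FC was -0.80 (SE 0.11, FDR = 8.79e-05).

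*Smc1b* (chr15:85064689-85131964, minus strand; 1247 residues), the meiotic SMC1 gene, was at 311, 303, 360 and 341 CPM in control libraries. It was at 107, 146, 172 and 209 CPM in *Bmpr1a*-cKO libraries. Again library 1 was the lowest and library 4 the highest of the *Bmpr1a*-cKO libraries, and none reached the control range. The mean fell from 329 ± 26.3 to 158 ± 42.9 CPM, with a log2FC of -1.05 (SE 0.14, FDR = 5.59e-05).

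Among the mitotic genes, the kleisin gene *Rad21* (chr15:51962240-51991747, minus strand; 634 residues) rose most. It was at 203, 230, 218 and 209 CPM in control and at 340, 373, 346.5 and 369 CPM in *Bmpr1a*-cKO libraries. The groups were far apart and each was tight. The mean rose from 215 ± 11.9 to 357 ± 16.3 CPM, with a log2FC of 0.73 (SE 0.060, FDR = 6.49e-07). With libraries scaled to *Ddx4* in place of TMM the log2FC was 0.66 but its SE was 0.23, and the FDR rose to 0.0750.

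*Smc1a* (chrX:152016428-152062694, plus strand; 1232 residues), the mitotic SMC1 gene, rose from 93.8, 106, 102 and 103 CPM to 133, 164, 148 and 160 CPM. Each *Bmpr1a*-cKO library lay above each control library. The log2FC was 0.58 (SE 0.070, FDR = 2.18e-05), and scaled to *Ddx4* it was 0.49 (SE 0.23, FDR = 0.314).

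*Stag1* (chr9:100597798-100959375, plus strand; 1257 residues) was at 156, 172, 170 and 180 CPM in control and at 190, 205, 209 and 216 CPM in *Bmpr1a*-cKO libraries. The groups did not overlap but lay close together, and the log2FC of 0.28 (SE 0.062, FDR = 0.00342) was below the fold-change threshold. The log2FC was 0.19 scaled to *Ddx4* (SE 0.23, FDR = 0.882) and 0.30 scaled to the germ cell marker list (SE 0.17, FDR = 0.322).

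*Stag2* (chrX:42149317-42277185, plus strand; 1267 residues), the other mitotic STAG gene, was at 153, 174, 144 and 165 CPM in control and at 176, 177, 156 and 182 CPM in *Bmpr1a*-cKO libraries. These ranges overlapped. The log2FC was 0.12 with a 95% interval of -0.029 to 0.27 (FDR = 0.222), and 28 exon bases of *Stag2* are shared with *Gm37564* on the opposite strand.

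*Smc3* (chr19:53600398-53645833, plus strand; 1216 residues) encodes the subunit that mitotic and meiotic cohesin have in common. It was at 176, 191, 185 and 187 CPM in control and at 173, 212, 184 and 203 CPM in *Bmpr1a*-cKO libraries, so that the control libraries lay inside the range of the others. The log2FC was 0.066 with a 95% interval of -0.076 to 0.21 (FDR = 0.499), and its estimate turned to -0.028 when scaled to *Ddx4*.

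Within a library, the ratio of a meiotic gene to its mitotic counterpart does not depend on how libraries are scaled. The ratio does depend on the cells of the whole ovary, since mitotic cohesin also serves somatic cells. For all 5 pairs compared, the highest ratio among *Bmpr1a*-cKO libraries lay below the lowest among controls. Levels were set per exon length here, as RPKM, so that genes can be compared. The *Smc1b* to *Smc1a* ratio was 4.72, 4.08, 5.04 and 4.70 in control libraries and 1.15, 1.27, 1.65 and 1.86 in *Bmpr1a*-cKO libraries. Per exon length *Smc1b* remained the higher of the pair in each library, whereas per coding length it lay below *Smc1a* in *Bmpr1a*-cKO library 1 (28.7 against 35.9 RPKM) and library 2 (39.0 against 44.2 RPKM). The log2 ratio differed by -1.67 (SE 0.17) between the genotypes.

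The *Rec8* to *Rad21* ratio was 1.20, 1.13, 1.35 and 1.12 in control libraries and 0.562, 0.431, 0.562 and 0.512 in *Bmpr1a*-cKO libraries, a log2 difference of -1.22 (SE 0.11). *Rec8* thus lay above *Rad21* in control and below it in *Bmpr1a*-cKO libraries per exon length. Per coding length the control libraries of both genes overlapped, with means of 101 RPKM for *Rec8* and 113 RPKM for *Rad21*. The *Rad21l* to *Rad21* ratio was 0.251, 0.132, 0.227 and 0.357 in control and 0.0143, 0.0122, 0.0239 and 0.0499 in *Bmpr1a*-cKO libraries, a log2 difference of -3.42 (SE 0.55).

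The *Stag3* to *Stag1* ratio was 3.13, 2.27, 3.29 and 2.82 in control and 1.16, 1.33, 1.42 and 1.51 in *Bmpr1a*-cKO libraries, a log2 difference of -1.08 (SE 0.14). That of *Stag3* to *Stag2* was 2.24, 1.58, 2.72 and 2.16 in control and 0.878, 1.08, 1.34 and 1.26 in *Bmpr1a*-cKO libraries, a log2 difference of -0.93 (SE 0.21). *Stag3* stayed above *Stag1* in every library per exon length, but per coding length its mean in *Bmpr1a*-cKO libraries was 36.5 against 54.4 RPKM. The choice of length shifts both genotypes alike and leaves the differences between them as they are. For each of the 5 ratios the exact permutation test gave p = 0.0286 (two-sided, n = 4 each, not adjusted over the 5), the smallest p that 4 against 4 libraries can give. In every pair but *Stag3* to *Stag2*, both genes already separated the genotypes, in opposite directions. That fixed the p of these pairs in advance, so it adds no support to the levels given above. The pairs share *Rad21* and *Stag3* and are not independent.

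**Figure D2:**
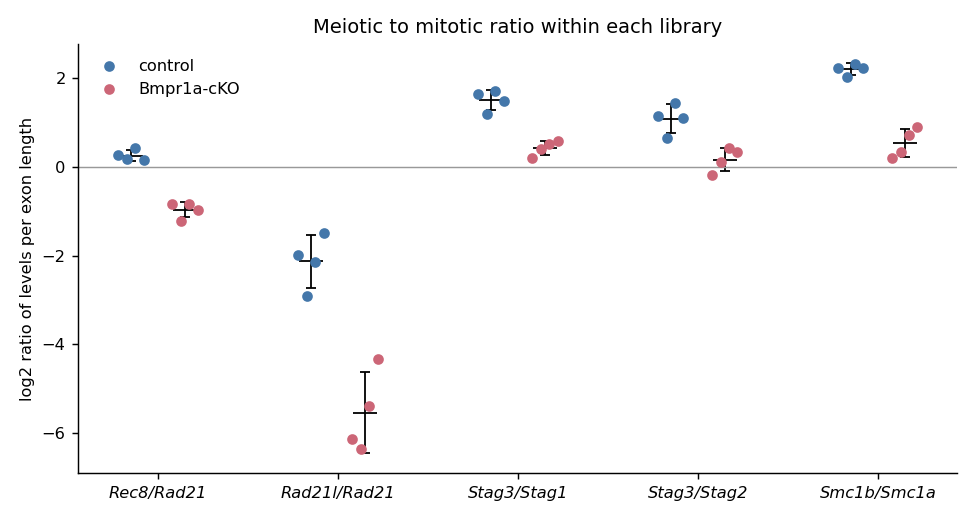
Log2 ratio of the level per exon length of each meiotic gene to its mitotic counterpart, 1 point per library, with the mean and whiskers of 1 SD (n = 4 per genotype). In each of the 5 pairs all *Bmpr1a*-cKO points lie below all control points, and the *Rec8* to *Rad21* ratio crosses 0, where both genes are level per exon length.

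The share of each gene in its subunit position followed from these levels and is given as a description. The libraries hold whole ovaries, and mitotic cohesin also serves somatic cells. A share is thus not the makeup of cohesin in germ cells. In summed RPKM of the 3 kleisin genes, *Rad21* held 41.1% ± 2.31 in control and 65.0% ± 2.90 in *Bmpr1a*-cKO libraries, *Rec8* 49.1% ± 2.95 and 33.4% ± 2.71, and *Rad21l* 9.77% ± 3.57 and 1.53% ± 1.11 (SD, n = 4 each). The kleisin sum itself was 118 to 133 RPKM in control libraries and 127 to 136 RPKM in the others, and these ranges overlapped. Among SMC1 genes, *Smc1b* held 82.2% ± 1.32 in control and 59.2% ± 5.35 in *Bmpr1a*-cKO libraries. Their sum was 93.0 to 107 RPKM in control libraries and 49.5 to 79.4 RPKM in the others, without overlap. Among STAG genes, *Stag3* held 54.9% ± 4.89 and 38.0% ± 3.55, with a sum of 68.7 to 79.1 RPKM in control libraries and 56.1 to 67.9 RPKM in the others.

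**Figure D3:**
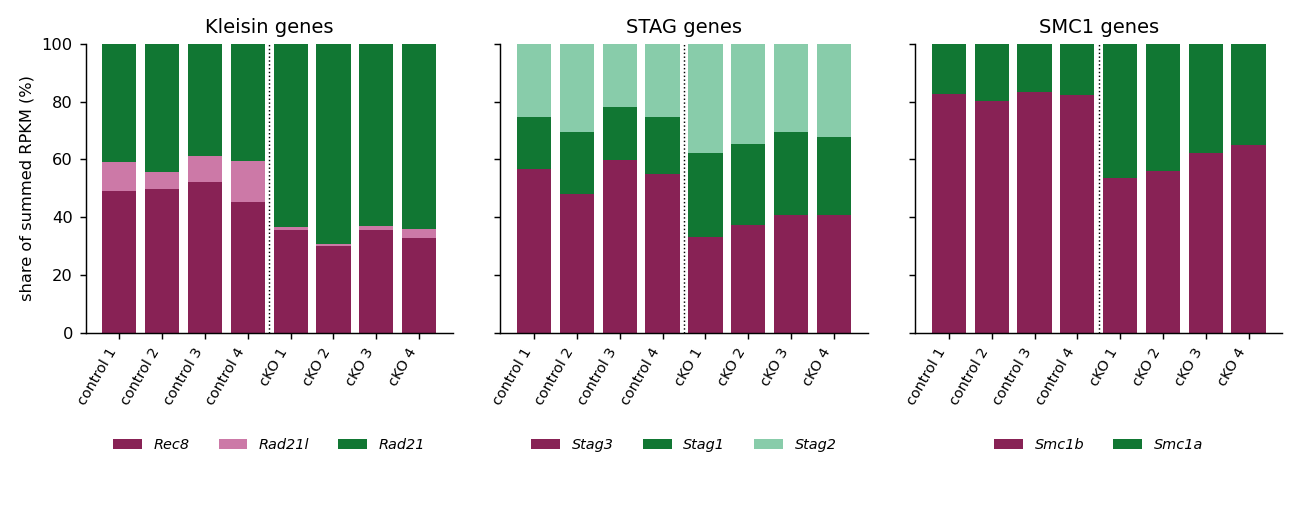
Share (%) of each gene in the summed RPKM of the kleisin, STAG and SMC1 genes, 1 bar per library, with control libraries left of the dotted line. The dark red meiotic parts (*Rec8*, *Stag3*, *Smc1b*) and the pink part (*Rad21l*) are smaller in every *Bmpr1a*-cKO bar than in every control bar.

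Per exon length, the order of mean levels in control ovaries was *Smc1b* (81.2 RPKM), *Rec8* (60.9), *Rad21* (50.9), *Stag3* (41.3), *Smc3* (33.3), *Stag2* (19.2), *Smc1a* (17.5), *Stag1* (14.4) and *Rad21l* (12.1). The libraries of the neighbours *Stag3* and *Smc3*, *Stag2* and *Smc1a*, and *Stag1* and *Rad21l* overlapped. In *Bmpr1a*-cKO ovaries *Rad21* led (84.4 RPKM), *Rec8* (43.4), *Smc1b* (39.2) and *Smc3* (34.8) followed with overlapping neighbours, then *Smc1a* (26.2), *Stag3* (23.6) and *Stag2* (20.9), whose neighbours also overlapped, and *Stag1* (17.4) and *Rad21l* (2.02) came last. *Smc3*, the shared subunit, lay below *Smc1b* in every control library (31.7 to 34.5 against 75.0 to 88.9 RPKM), and their *Bmpr1a*-cKO libraries overlapped. These orders depend on the length used. Per coding length, *Rad21* (113 RPKM) led *Rec8* (101 RPKM) and *Smc1b* (87.9 RPKM) in control ovaries, and the annotated exons of *Rad21l* hold almost only coding sequence (1659 bases).

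The *Bmpr1a*-cKO libraries differed among themselves along with a germ cell gene. *Ddx4* was at 106, 167, 159 and 179 CPM in *Bmpr1a*-cKO libraries 1 to 4, so that library 1, the lowest for *Stag3* and *Smc1b*, was also the lowest for *Ddx4*. Divided by *Ddx4*, *Smc1b* had a coefficient of variation of 11.9% over the *Bmpr1a*-cKO libraries, against 27.0% as CPM, and *Stag3* one of 9.81%, against 16.03%. Over the control libraries the division widened both, from 8.01% to 15.5% for *Smc1b* and from 14.4% to 20.3% for *Stag3*. In *Bmpr1a*-cKO libraries it also widened the spread of *Rec8* from 8.42% to 29.9% and that of *Rad21* from 4.57% to 21.98%. Per *Ddx4*, *Smc1b* was at 2.005 to 2.83 in control libraries and 0.875 to 1.17 in the others, *Stag3* at 1.26 to 2.05 and 0.795 to 1.01, *Rad21l* at 0.0778 to 0.241 and 0.00980 to 0.0396, and none of these overlapped. *Rec8* per *Ddx4* was at 1.19 to 1.35 and 0.668 to 1.25, which overlapped through *Bmpr1a*-cKO library 1. *Rad21* per *Ddx4* was at 1.30 to 1.73 in control libraries and 2.06 to 3.21 in the others, and *Smc1a* at 0.604 to 0.856 and 0.894 to 1.25, again without overlap.

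**Figure D4:**
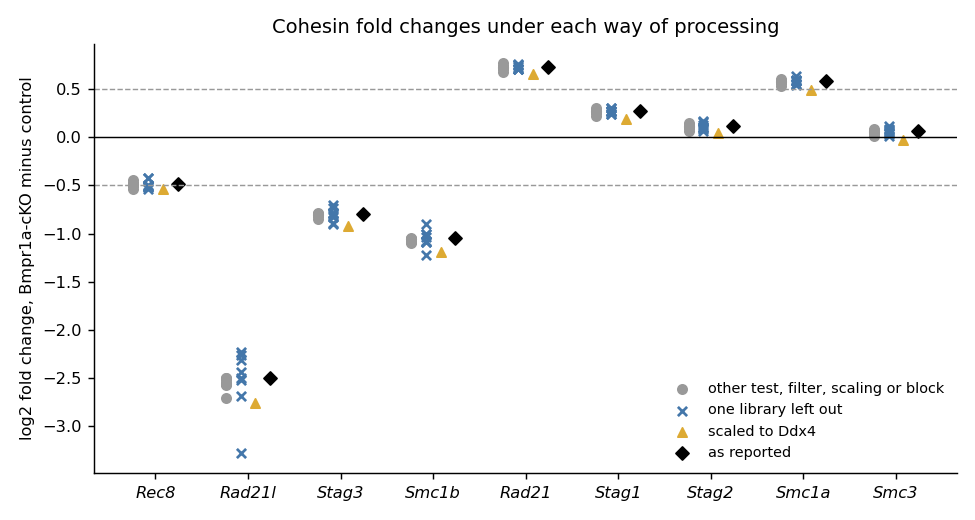
Log2 fold change of each cohesin gene as reported (black diamonds), with 1 library left out (blue crosses), scaled to *Ddx4* (yellow triangles) and under the other tests, filters and scalings and the replicate block (grey circles). Dashed lines mark 0.5 and -0.5, and *Rec8* sits on the lower one while *Smc3* sits at 0.

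For each meiotic gene, the genes with the most similar pattern over the 8 libraries were found by the root mean square difference of log2 CPM centred on the control mean, among 13975 genes. For *Smc1b* the nearest was *Dmc1* (0.099, log2FC -1.07), which encodes the meiotic recombinase, followed by *Atf7ip2* (0.10) and *Jade3* (0.12). For *Stag3* they were *Iqcb1* (0.070), *Spata5* (0.078) and *Armh4* (0.092), and for *Rec8* *Coq10a* (0.029) and *Orc1* (0.068). For *Rad21l* they were *Lypd4* (0.26), *Dmrtc2* (0.27) and *Meiob* (0.36, log2FC -2.59), which encodes a recombination protein. The distances were larger for *Rad21l*, which had lower counts and a larger change than the other meiotic genes. The reason was not tested.

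The regulators that load, lock, protect and cut cohesin did not move as one. Of 17 regulator genes 16 were tested, 1 was a downregulated and 5 were upregulated DEGs, and 3 were lower and 6 higher by FDR alone, with a median log2FC of 0.050. Over all genes tested the shares were 4.06% and 6.11% for DEGs and 12.5% and 17.3% by FDR, and the share of regulators that were lower is near these. *Meikin*, a meiotic kinetochore gene, had too few counts to test. The downregulated DEG was *Esco2*, which encodes an acetyltransferase that locks cohesin in S phase. It was at 116, 106, 123 and 117 CPM in control and at 52.7, 60.7, 64.5 and 72.5 CPM in *Bmpr1a*-cKO libraries, a log2FC of -0.88 (SE 0.083, FDR = 2.52e-06). As with *Stag3* and *Smc1b*, *Bmpr1a*-cKO library 1 was the lowest and library 4 the highest. *Esco1*, the other acetyltransferase, had a log2FC of -0.19 (FDR = 0.0448). *Bub1*, a kinase whose mark recruits shugoshin to centromeres, was lower too, with a log2FC of -0.35 (FDR = 0.00552) and no overlap between the genotypes.

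The upregulated regulators have differing roles in cohesion and its removal. *Plk1*, a kinase that drives removal of cohesin from chromosome arms, had a log2FC of 0.82 (FDR = 1.41e-06), and *Cdca5*, encoding sororin, which guards cohesin against release, one of 0.69 (FDR = 0.000369). The shugoshin genes *Sgo2a* (0.67, FDR = 1.69e-05) and *Sgo1* (0.59, FDR = 3.71e-05) protect centromeric cohesin, and SGO2 guards REC8 in meiosis. Their rise therefore ran opposite to the fall of *Rec8*. *Hdac8*, encoding the SMC3 deacetylase, had a log2FC of 0.55 (FDR = 0.00870). Its genotypes overlapped, as *Bmpr1a*-cKO library 1 (10.5 CPM) lay below control library 2 (11.4 CPM). Its log2FC fell below 0.5 without control library 4 (0.48) or *Bmpr1a*-cKO library 2 (0.44) or 4 (0.49), and with library size as the only scaling (0.496). Exons of *Sgo2a* overlap *Kctd18* on the opposite strand over 35% of their length. *Pds5b*, whose protein acts with WAPL in release, was higher by FDR (log2FC 0.21, FDR = 0.0117). The loader genes *Nipbl* (-0.084) and *Mau2* (-0.16, FDR = 0.0865) and the release genes *Wapl* (0.11) and *Pds5a* (0.077) did not pass the FDR. Nor did the separase gene *Espl1* (-0.0095), *Pttg1* (0.022) or *Haspin* (-0.10). Scaled to *Ddx4*, 1 regulator (*Plk1*) was called higher.

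The SMC complexes outside cohesin gave a comparison for the rise of the mitotic subunits. Of 14 condensin and SMC5/6 genes, 1 was an upregulated DEG (*Nsmce4a*, log2FC 0.60, FDR = 3.12e-05) and 10 were higher by FDR alone, 6 of 8 in condensin and 4 of 6 in SMC5/6, with a median log2FC of 0.27. The single DEG is near the 6.11% of all genes tested, and the count by FDR stands against 17.3%. The condensin ATPase genes *Smc2* and *Smc4* had a log2FC of 0.48 (FDR = 3.26e-05) and 0.38 (FDR = 0.000271), and *Ncaph*, the condensin kleisin gene, one of 0.42 (FDR = 0.000547). These values lay between those of *Stag1* and *Smc1a* and below that of *Rad21*. *Smc2* passed the fold-change threshold when scaled to the germ cell marker list (0.51) and without *Bmpr1a*-cKO library 1 (0.52).

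**Figure D5:**
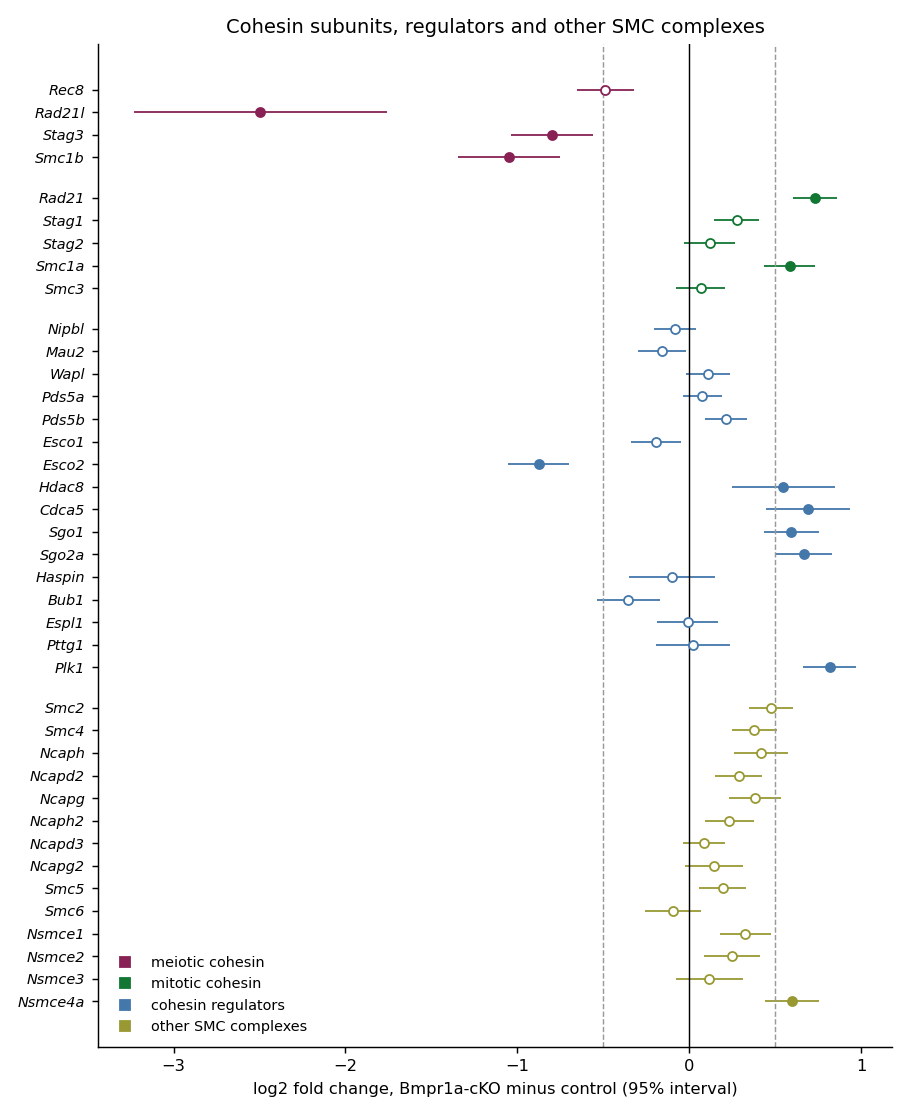
Log2FC of *Bmpr1a*-cKO over control with its 95% interval for the cohesin subunits, 16 regulators and 14 other SMC genes. Filled points are DEGs and dashed lines mark 0.5 and -0.5. The meiotic subunits lie left of 0, as do *Esco2*, *Bub1*, *Esco1* and *Mau2* among the regulators with intervals off 0, and the mitotic subunits and most condensin genes lie right of it.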

How the data were processed

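RNA-Seq libraries were made by the authors with a directional paired-end kit. According to the methods and the submitters' processing notes, reads were trimmed with Trimmomatic 0.39 and mapped and counted with STAR 2.5.2 on mm10; annotation and strand setting are not given in the sources used here. The authors deposited whole-number counts per gene symbol for each library, without normalization, and these were used. A deposited table of CPM was not used.

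Genes were filtered by filterByExpr, scaled by TMM and compared by edgeR 4.0.16 with its quasi-likelihood F test (R 4.3.3; two-sided, Benjamini-Hochberg over all genes tested). Alternatives used limma 3.58.1 and DESeq2 1.42.0. Log ratios carried a prior count of 2. Coordinates and exon lengths came from GENCODE vM21 (mm10) and promoters from RefSeq (GRCm38.p6). RPKM divided CPM by the union of exons. The members, gene lists and likeness rule were chosen with earlier results of these data known. All cohesin members, and the DEGs and subunits with a clear role among the regulators and SMC genes, are named. For each meiotic member the 3 nearest genes by likeness were taken, and 1 of them is not reported here. Replicates within a genotype differed beyond counting noise (chi-square per degree of freedom at least 3.15). Separate embryo pools made each library. The procedure was tested on simulated data.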

Additional observations from a re-analysis of the deposited data

Results flagged for a closer look

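The level of *Rec8* in *Bmpr1a*-cKO library 2, 112 CPM (111.55), stood apart from the other three libraries of its genotype, with a gap of 0.839 of the whole range, beyond the critical value of Dixon's test at 95% for 4 samples. It was the 1 group set apart among 28 checked, and chance sets apart about 1 in 20. Without this library the log2FC of *Rec8* was -0.43, against -0.49 with it.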

How the results depend on the processing

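The direction of every cohesin log2FC was kept under all 18 alternatives, except that *Smc3* turned from 0.066 to -0.028 when scaled to *Ddx4*. That scaling rests on 1 gene and raised the standard errors. Under it 0 of the 5 mitotic genes were called higher by edgeR (2 at an unadjusted p below 0.05), 1 regulator and 0 condensin or SMC5/6 genes (4 and 1 at an unadjusted p below 0.05), and all genes gave 727 DEGs against 1449. Scaled to the germ cell marker list, 2 condensin or SMC5/6 genes were called higher. With TMM scaling and no fold-change threshold there were 10. *Rad21* and *Smc1a* lost their call only when scaled to *Ddx4*.

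With 1 library left out, the genes called were 3 to 4 meiotic, 2 to 2 mitotic, 4 to 5 regulators and 1 to 2 condensin or SMC5/6, 2 without *Bmpr1a*-cKO library 1. The log2FC of *Rec8* ran from -0.54 to -0.43, and *Rec8* became a DEG under 6 alternatives. The log2 ratio differences ran from -1.26 to -1.13 (*Rec8* to *Rad21*), -3.83 to -3.15 (*Rad21l* to *Rad21*), -1.19 to -1.01 (*Stag3* to *Stag1*), -1.07 to -0.81 (*Stag3* to *Stag2*) and -1.78 to -1.55 (*Smc1b* to *Smc1a*), with an exact permutation p of 0.0571, the smallest that 3 against 4 libraries can give. The replicate numbers were not taken to pair the libraries, since not every number correlated above 0.1: deviations of same-numbered libraries correlated at 0.20, 0.16, 0.11 and -0.087, and 2 of the 4 numbers matched best with their own. With the replicate number as a block there were 1457 DEGs, no count of cohesin genes changed, and the log2 ratio differences stayed at -1.22, -3.42, -1.08, -0.93 and -1.67 in the same order (exact permutation p = 0.125, the smallest 4 pairs can give). The block lowered the SE of every cohesin member, that of *Rad21l* from 0.35 to 0.17 and that of *Smc1b* from 0.14 to 0.094. Genes with an unadjusted p below 0.05 in edgeR rose from 5666 to 6079, and *Mau2* passed the FDR under the block (0.0487).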
